A study of Mus musculus with 4 samples.

Results

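The genes described here are the mouse histone genes whose symbols begin with Hist1h, Hist2h, Hist3h or Hist4h. They were chosen by symbol alone, from the 3 deposited tables joined by gene identifier, which gave 47 of 22084 genes. GENCODE vM21 annotates 70 genes with such symbols, and the other 23, Hist1h1t among them, are not listed in the tables and were not analysed here. By symbol, 5 of the 47 belong to the linker histone H1, 7 to H2A, 15 to H2B, 10 to H3 and 10 to H4. These counts include 2 genes annotated as pseudogenes, Hist1h2al under H2A and Hist3h2bb-ps under H2B. The Hist1 cluster on chromosome 13 holds 40 of them, chromosome 3 holds 3 Hist2 genes, chromosome 11 holds 3 Hist3 genes, and Hist4h4 lies on chromosome 6. All 3 tables list 40 of the genes, and where a table lacks a gene its library was given a count of 0.

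Reads from 4 RNA libraries of mouse embryos, strain B6D2F2 and age E13.5, were counted per gene. The titles and tissue fields give telencephalic tissue, the front of the embryonic brain that forms cortex and basal ganglia, whereas the extraction protocol gives cerebral cortex. By genotype field, KO26F and KO23M were TCF20-/- and WT25F was TCF20+/+. WT22M is wild type in its title and TCF20+/- in its genotype field, so WT25F and WT22M, which hold at least 1 intact allele under either label, are called carriers. The sources used here do not give the nature of the Tcf20 allele or say whether each library is a separate litter, and p-values therefore cover only the spread between these samples.

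Library totals ran from 17791641 to 18509743 counts, so 1 count was worth 0.0540 to 0.0562 counts per 1000000 counts of the library (CPM), and a listed count of 0 allows a level of up to 0.162 to 0.169 CPM (3 counts), by library. Intervals and floors cover counting error only. Tcf20 itself stood at 98.6 and 104 CPM in KO26F and KO23M, and at 118 and 111 in WT25F and WT22M; a count over the whole gene checks the knockout label only where the deleted part removes RNA. No defining marker of radial glia or neurons was at 0 in any library. Markers of neighbouring tissues differed between libraries: 6 diencephalon markers summed to 97.3 CPM in WT25F against 38.8 to 43.3 in the others, and 7 choroid plexus markers to 202 CPM in WT22M against 783 to 1004 in the others.

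Most of these genes belong to the replication-dependent class. Their RNA is made in S phase, when new DNA must be packed into nucleosomes, and it ends not in a poly(A) tail but just after a short stem-loop. The stem-loop is bound by SLBP and the RNA is cut downstream of it with the help of the U7 small nuclear RNP. In dividing cells these are among the most abundant messages, but a library made from polyadenylated RNA, the usual product of the TruSeq RNA kit named in the labels, captures mainly the copies that carry a tail. In such a library, the level of a histone gene is therefore not a measure of its total RNA. In bulk tissue, fewer cells of a type and less RNA per cell cannot be told apart.

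The 3′ ends are shown first, because most counts came from genes that carry an annotated poly(A) signal beside or in place of the stem-loop. Sequences are from the GENCODE vM21 transcripts (GRCm38), 5′ to 3′ on the transcript strand, and the capitals mark the 16 bases matched by the stem-loop pattern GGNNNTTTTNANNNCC. The first group holds the leading genes that have a match, and 1 gene for each version of the stem-loop among the others.
Hist3h2ba: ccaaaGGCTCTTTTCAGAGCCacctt
Hist3h2a: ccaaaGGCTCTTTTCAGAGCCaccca
Hist1h1c: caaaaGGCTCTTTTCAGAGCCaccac
Hist1h4i: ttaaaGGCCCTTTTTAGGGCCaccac
Hist1h4j: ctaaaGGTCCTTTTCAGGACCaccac
Hist1h4c: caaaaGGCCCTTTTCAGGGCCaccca
Hist1h3c: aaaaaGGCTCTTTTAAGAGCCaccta
In the next group the capitals mark the poly(A) signal, AATAAA or ATTAAA, in the last 50 bases of the transcript.
Hist3h2ba: taatggtattAATAAAtttggttcaa
Hist3h2a: gtatatgcccAATAAAataagagtac
Hist1h1c: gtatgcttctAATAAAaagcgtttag
Hist2h2be: tattattattAATAAAgttaccgatt
Hist1h4i: ttctgtttacATTAAAagtattctat

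The stem-loop pattern was present in 33 of the 47 genes (70.2%), against 1.64% of 21901 protein-coding genes. The same 16 bases, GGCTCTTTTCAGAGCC, stood in 20 of them: 3 H1, 5 H2A, 8 H2B and 4 H3 genes. No H4 gene had that version. The 8 H4 genes with a match carried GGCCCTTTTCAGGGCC (5 genes), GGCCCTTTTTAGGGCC (Hist1h4i and Hist2h4) or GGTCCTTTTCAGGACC (Hist1h4j). A further version, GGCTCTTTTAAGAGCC, stood in 2 H2B and 3 H3 genes. For 5 genes, Hist1h3h and Hist1h3i among them, the annotation holds the coding or pseudogene sequence only, so their ends could not be searched.

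A poly(A) signal stood in the last 50 bases of 15 of the 47 genes (31.9%), against 77.9% of protein-coding genes, and 11 genes had both signal and stem-loop. In Hist3h2ba the annotated transcript ran 169 bases past the stem-loop, in Hist1h4i 330, in Hist1h1c 840 and in Hist3h2a 1643. In the promoter windows of RefSeq (GRCm38.p6, 250 bases before to 50 after the start, both strands), 40 of the 47 genes were matched. TATAAA was present in 57.5% of these against 14.2% of all promoters, and CCAAT in 85% against 37.9%. A match is a description of the letters, not of binding.

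The genes with an annotated poly(A) signal held 90.8% of all counts over the 47 genes, 61.2% of all counts being those of Hist3h2ba alone. By gene the difference was small, with a median of the mean counts of 6.75 with the signal and 4.88 without it. The 22 genes with only a stem-loop held 3.26%. Of the 9 genes with a mean of at least 20 counts, 6 had the signal, and of the other 38 it was found in 9. The exceptions among the 9 were Hist1h2bc, with a mean of 160.5 counts and neither motif in its annotated transcript, Hist1h3c, with 27.5 counts and a stem-loop only, and the pseudogene Hist3h2bb-ps, with 20.3. How reads matching several places were counted is not stated in the sources used here. In 17 genes over 50% of all 50-base windows also occur in transcripts of other genes, and these 17 held 2.51% of the counts. If reads matching several places were dropped, that share would be low for this reason. It therefore cannot show how far shared sequence affects the summed level.

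**Figure D1:**
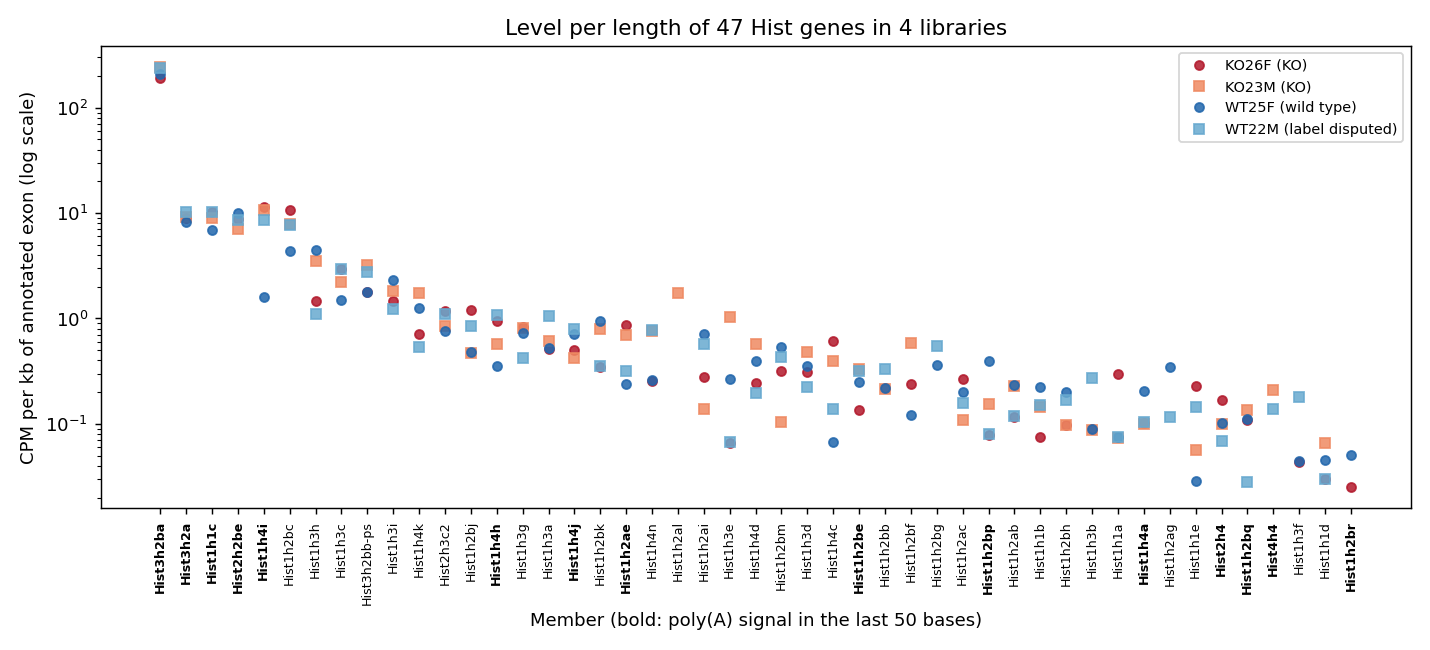
Level of each of the 47 genes in CPM per kilobase of annotated exon (log scale), one point per library, with genes in order of their mean level and names in bold where a poly(A) signal stands in the last 50 bases. Counts of 0 are not drawn. Hist3h2ba stands at 190 to 244, and every other gene is below 12.

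Hist3h2ba, an H2B gene, stood far above the others. It lies on chromosome 11 (GRCm38, 58948920 to 58949533, plus strand, 1 exon). It had 2112 and 2771 counts in KO26F and KO23M, and 2289 and 2601 in WT25F and WT22M, which made 61.2% of all counts of the 47 genes. Per kilobase of exon its level was 220 ± 25.6 CPM (SD, n = 4), and the next gene, its neighbour Hist3h2a, stood at 9.16 ± 0.791. Hist3h2a, an H2A gene, had 352, 365, 317 and 388 counts in the same order of libraries. Its exons overlap those of Trim17 and Gm44313, and without a stated strand its counts are uncertain. In all, 9 of the 47 genes overlap exons of another gene, Hist1h1e, Hist1h2be and Hist1h2ae among them, and their counts are uncertain too.

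Below Hist3h2ba, 5 genes could not be put in order beyond their spread. Hist1h1c, which encodes a linker histone, stood at 9.11 ± 1.61 CPM per kilobase, and Hist2h2be, an H2B gene with a poly(A) signal and no stem-loop match, at 8.64 ± 1.20. Hist1h4i, an H4 gene, stood at 8.09 ± 4.48 and Hist1h2bc, an H2B gene, at 7.66 ± 2.60. Hist1h4i had its spread from a low value in WT25F, 1.61 against 8.66 to 11.5 in the others. The 6 genes with a mean of at least 100 counts held 93.4% of all counts. The next gene per length, Hist1h3h, was at 2.65 ± 1.63.

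The other genes had few reads. A total of 24 genes had under 10 counts in every library, 7 had 0 in at least 1 library, and 34 did not pass the filter on low counts. The median gene had a mean of 5.5 counts. Among the linker histone genes, Hist1h1a had 4, 1, 1 and 1 counts in KO26F, KO23M, WT25F and WT22M, Hist1h1b 1, 2, 3 and 2, Hist1h1d 4, 9, 6 and 4, and Hist1h1e 8, 2, 1 and 5. Of the H2A genes, Hist1h2ae had 11, 9, 3 and 4 counts, and of the H4 genes Hist1h4h had 8, 5, 3 and 9 and Hist1h4k 4, 10, 7 and 3, in the same order. The highest single value among the 34 was 16 counts, for Hist1h3e in KO23M.

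Hist4h4 had 0, 11, 0 and 7 counts and the pseudogene Hist1h2al 0, 11, 0 and 0. Their 0 in KO26F, and that of Hist1h2al in WT22M, comes from a missing table entry. The tables list no gene with under 5 counts where WT25F is at 0, so these entries can hide up to 4 counts. With no filter all 47 genes were tested and 0 were called in each of the 3 comparisons described below, KO against carriers, KO against WT25F and WT22M against WT25F. Under that setting edgeR called only 9, 0 and 0 of all 22084 genes, so the 0 says little about the Hist genes. Of all genes 641, 353 and 520 had an unadjusted p under 0.05, and 3, 3 and 2 of these were Hist genes.

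The replacement histones are made outside S phase as well, and most of their RNAs carry ordinary poly(A) tails; that of H2afx can also end at a stem-loop. They gave the scale in the same libraries. Per kilobase of exon, H3f3b (H3.3) stood at 357 ± 9.70 CPM (SD, n = 4), H1f0 (H1.0) at 286 ± 15.5 and H2afz (H2A.Z) at 229 ± 13.6. Hist3h2ba, between 190 and 244, overlapped the range of H2afz, 214 to 242. By mean level, the remaining 46 Hist genes lay below the replacement variant H2afj, at 10.6 ± 0.468. The lowest replacement histone listed, H3f3c, stood at 5.34 ± 1.56. By mean level, Hist3h2a, Hist1h1c, Hist2h2be, Hist1h4i and Hist1h2bc lay above it. In KO26F, Hist1h4i, Hist1h2bc and Hist1h1c stood at 11.5, 10.7 and 10.3, above H2afj at 9.94 in that library. In each of the other libraries all 46 lay below H2afj.

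By class, H2B took most of the counts, through Hist3h2ba. The 15 H2B genes held 77.2% of all counts, the 7 H2A genes 9.48%, the 5 H1 genes 6.77%, the 10 H4 genes 3.81% and the 10 H3 genes 2.69%. The nucleosome holds equal numbers of the 4 core histones, and these shares are of captured RNA, not of protein. Hist2h2be and Hist1h2bc, with 10.2% and 4.02% of all counts, are H2B genes too. The median gene of a class per kilobase ranged from 0.130 CPM (H1) to 0.688 (H3). These medians rest on few reads, the median of the mean counts being 3 (H2A) to 7.25 (H3) by class.

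**Figure D2:**
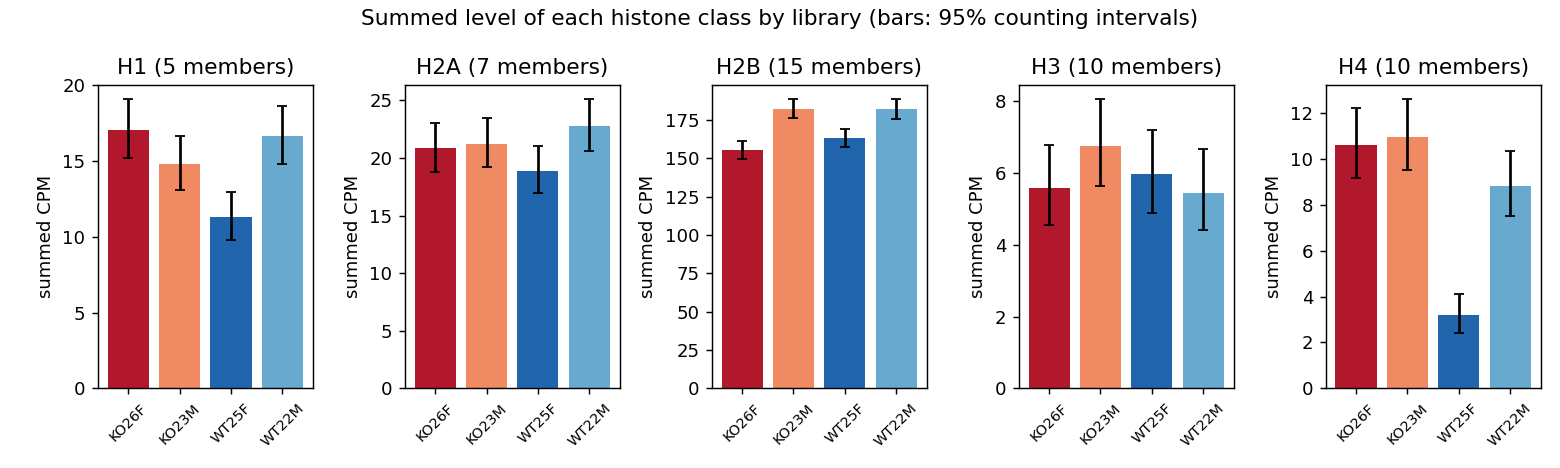
Summed level of the genes of each histone class in CPM (linear axes from 0, a separate scale for each class), one bar per library, with 95% exact Poisson intervals that cover counting error only. H4 is lowest in WT25F, at 3.18 CPM against 8.82 to 10.97 in the other libraries.

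The series compares telencephalon with and without intact Tcf20, which encodes a chromatin-associated nuclear protein. The summed level of the 47 genes was 209 CPM in KO26F and 236 in KO23M, and 202 in WT25F and 236 in WT22M. The ranges of the KO-labelled libraries and the carriers overlapped, with means of 223 ± 18.7 and 219 ± 23.4 CPM (SD, n = 2 each). The order followed the letter in the titles: both libraries with F were lower than both with M. Hist3h2ba, at 117 and 128 CPM in the F libraries and 150 and 146 in the M libraries, carried that pattern; a difference between letters was not tested. Without Hist3h2ba the other 46 genes summed to 92.8 and 86.1 CPM in the KO-labelled libraries and to 74.9 and 89.3 in WT25F and WT22M.

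None of the 13 genes that passed the filter was called in KO against carriers by edgeR's quasi-likelihood test with Benjamini-Hochberg adjustment over 16252 genes, where 0.0615% of all genes were called. DESeq2 and limma voom also called 0. In edgeR 1 of the 13, Hist1h2bc, had an unadjusted p under 0.05, as did 464 of all 16252 genes, and in limma voom 2 of the 13 and 475 of all. Of the 13, 6 had a higher fitted level in the KO-labelled libraries and 7 a lower one, with a median log2 fold change of -0.02 against 0.00 over all genes tested. Both KO-labelled libraries lay above both carriers in 2 of the 13 (background 13.6% of all genes) and below both in 1 (background 13.4%). With 2 libraries a group this depth and spread left moderate changes unseen. In simulated data for this comparison, 31.3% of genes changed 1.5-fold and 79.1% of those changed 2-fold were called. The changed genes were drawn from all genes tested, with a spread that depended on level only. These shares do not carry over to the 13 genes, whose standard errors ran from 0.13 (Hist3h2ba) to 1.01 (Hist1h4i).

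Hist3h2ba stood at 133 ± 23.5 CPM in the KO-labelled libraries and 137 ± 13.2 in the carriers (SD, n = 2 each), a log2 fold change of -0.04 (SE 0.13). Its interval of 1.96 standard errors ran from -0.29 to 0.21. For Hist3h2a the fold change was -0.02 (SE 0.15), and for Hist2h2be, at 23.3, 18.6, 26.2 and 22.4 CPM in KO26F, KO23M, WT25F and WT22M, it was -0.22 (SE 0.15), and from -0.37 without KO26F to -0.09 without KO23M. None of these 3 genes, the most counted of the 47, was called. Their fold changes had an adjusted p of 0.9997 in edgeR's quasi-likelihood test.

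Hist1h1c stood at 16.1 and 14.0 CPM in KO26F and KO23M, and at 10.7 and 15.96 in WT25F and WT22M. The groups overlapped, and the log2 fold change was 0.17 (SE 0.19). Among the genes near the filter, Hist1h4j (histone H4) had 7 and 6 counts in the KO-labelled libraries against 10 and 11, and it was the 1 tested gene below both carriers. Hist1h2be (H2B) had 11, 27, 20 and 25 counts, Hist1h3c (H3) 34, 26, 17 and 33, Hist1h3i (H3) 11, 14, 17 and 9, Hist2h3c2 (H3) 22, 16, 14 and 20, and Hist3h2bb-ps 15, 28, 15 and 23, in the order KO26F, KO23M, WT25F and WT22M. In these 5 genes the groups overlapped.

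**Figure D3:**
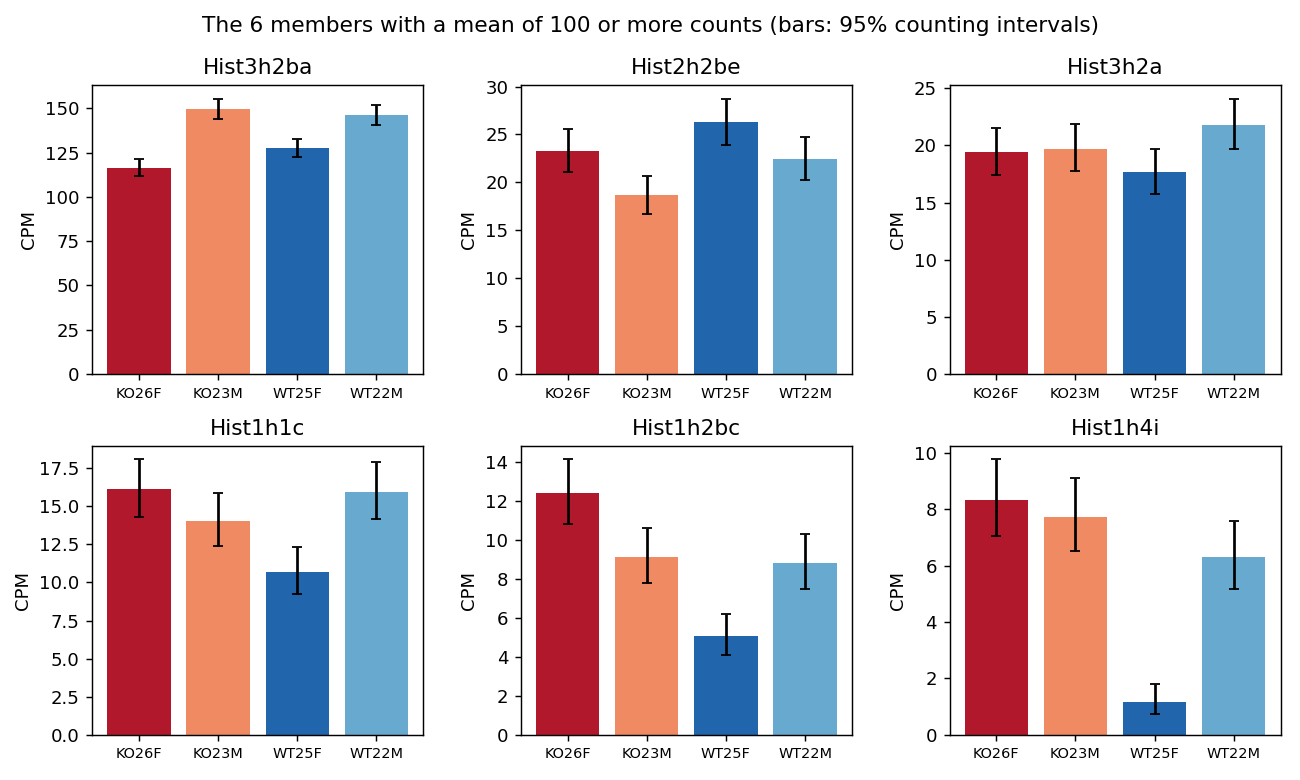
Level in CPM of the 6 genes with a mean of 100 or more counts, one bar per library, axes from 0, with 95% exact Poisson intervals that cover counting error only. Hist1h4i falls to 1.17 CPM in WT25F, while Hist3h2ba is higher in KO23M and WT22M, at 150 and 146 CPM, than in KO26F and WT25F.

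Among the 6 leading genes, Hist1h4i differed most between libraries. This H4 gene lies on chromosome 13 (GRCm38, 22040636 to 22041362, minus strand), has one of the H4 versions of the stem-loop shown above, and holds ATTAAA near its end. It had 151 and 143 counts in KO26F and KO23M, 21 in WT25F and 112 in WT22M, or 8.33, 7.73, 1.17 and 6.30 CPM. WT25F alone was low: its counting interval, 0.724 to 1.79 CPM, lay below the 5.18 to 7.57 of WT22M and below those of both KO-labelled libraries. Between KO23M and WT22M the log2 ratio was 0.30, with a counting interval from -0.07 to 0.67. In KO against carriers the fold change moved from 1.09 on the log2 scale to 0.33 without WT25F and to 2.78 without WT22M.

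In KO against WT25F alone, the library with which each deposited table compares 1 other library, 2 of the 13 genes were called and both were higher, where 0.345% of all genes were called and 0.166% were called higher. Hist1h4i had a log2 fold change of 2.78 (SE 0.36, adjusted p = 2.21e-11, edgeR's quasi-likelihood test with 3 groups). Hist1h2bc had one of 1.10 (SE 0.26, adjusted p = 0.00979). Over the 13 genes, 8 were higher and 5 lower, with a median of 0.16 against 0.00 over all genes. WT25F has no replicate, and the test assumes that it varies as the 2 KO-labelled libraries do.

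For most genes the spread used was in effect not that of the gene itself. For 14952 of the 16252 genes, 10 of the 13 Hist genes among them, the fit gave the spread shared over genes infinite weight. Which 10 of the 13 these were was not recorded. A further setting took the spread of the fit in 2 arms, in which WT25F and WT22M count as replicates. There the adjusted p in edgeR was 0.9997 for Hist1h4i and Hist1h2bc, and neither was called, while 6 of all 16252 genes were. Both genes were lowest in WT25F, and that spread holds the difference between WT25F and WT22M. The low value of WT25F thus widens the spread it was tested against, so the missing calls there decide nothing. With no filter on low counts the adjusted p was 0.780 for Hist1h4i and 1 for Hist1h2bc, a setting that called 0 of all 22084 genes. DESeq2 gave 0.000951 and 0.9999 and called 23 of all genes. The log2 fold changes stayed at 2.78 to 2.79 and at 1.09 to 1.10. Over 6 alternatives the adjusted p ran from 2.70e-11 to 0.9997 for Hist1h4i and from 0.0106 to 1 for Hist1h2bc.

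In WT22M against WT25F, 2 single libraries that share the reference with the comparison above, Hist1h4i was the 1 gene of 13 called, higher in WT22M by a log2 fold change of 2.45 (SE 0.40, adjusted p = 3.40e-07, same edgeR fit). Of all genes, 0.714% were called, 0.178% higher. DESeq2 gave it an adjusted p of 0.0619, and over 6 alternatives the adjusted p ran from 3.72e-07 to 0.994. The highest value came when the 2-arm fit supplied the spread, a setting that called 0 of all 16252 genes here. In that setting WT22M and WT25F count as replicates, so their difference is part of the spread it was tested against. A missing call there decides nothing. Neither library has a replicate, and in the main fit the spread came from the 2 KO-labelled libraries. The diencephalon markers were higher in WT25F by the sums given above: 4 of 6 were called lower in KO against WT25F and 2 of 6 in WT22M against WT25F. Of all 16252 genes, 29 and 87 were called lower in these 2 comparisons. The 7 erythroid markers summed to 1002 CPM in WT25F against 563 to 713 in the others, and 1 and 2 of them were called lower in the same 2 comparisons. Of the 7 choroid plexus markers, 0 and 6 were called lower in them, with median log2 fold changes of -0.17 and -2.25. The part of any of these lists in the level of Hist1h4i was not tested.

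Hist1h2bc, an H2B gene on chromosome 13 (GRCm38, 23684199 to 23692908, plus strand), had 225, 169, 91 and 157 counts in KO26F, KO23M, WT25F and WT22M, or 12.4, 9.13, 5.07 and 8.82 CPM. Both KO-labelled libraries lay above both carriers, but KO23M exceeded WT22M by only 0.05 on the log2 scale, with a counting interval from -0.27 to 0.37. WT25F was again the lowest. Against carriers the log2 fold change was 0.62 (SE 0.25, unadjusted p = 0.0261, adjusted p = 0.9997, edgeR's quasi-likelihood test), and it moved to 0.26 without WT25F, 0.41 without KO26F and 1.10 without WT22M; in WT22M against WT25F it was 0.83 (SE 0.29, adjusted p = 0.353, the same test with 3 groups). Hist1h1c was the third gene with its lowest level in WT25F beyond counting error, with log2 fold changes of 0.51 (SE 0.22) for KO and 0.61 (SE 0.25) for WT22M against WT25F. Neither passed adjustment.

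The 40 Hist1 genes summed to 47.8, 44.6, 29.2 and 42.2 CPM in KO26F, KO23M, WT25F and WT22M. WT25F was the lowest. Without Hist1h4i, Hist1h2bc and Hist1h1c, which were left out because they were low in WT25F, the other 37 summed to 10.9, 13.7, 12.3 and 11.1; nothing about WT25F can be read from that sum. The H4 genes without Hist1h4i summed to 2.26, 3.24, 2.01 and 2.53 CPM, with overlapping counting intervals. The genes next to Hist1h4i on chromosome 13, Hist1h2bk, Hist1h2ag and Hist1h2bj, together had 13, 11, 15 and 11 counts, so the low value of WT25F was not seen in them at this depth.

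**Figure D4:**
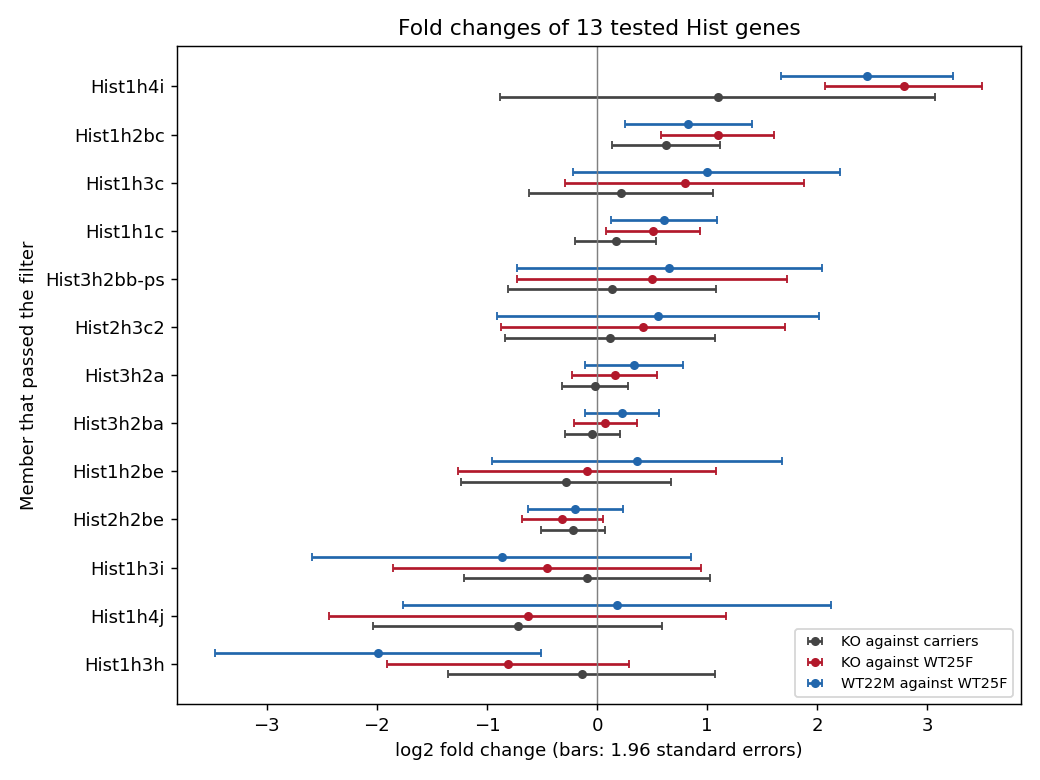
Log2 fold changes of the 13 genes that passed the filter in 3 comparisons, with bars of 1.96 standard errors, ordered by KO against WT25F. The last 2 comparisons share WT25F, so a low or high value of WT25F moves both the same way: Hist1h4i is at 2.78 and 2.45, while KO against carriers is at 1.09 with bars across 0.

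The authors' deposited tables also mark genes as significant, each for 1 library against WT25F. In the authors' deposited table for KO26F, 3 Hist genes are marked higher than in WT25F and 1 lower (background 0.937% and 1.02% of listed genes), and in that for KO23M 4 higher (background 0.976%). In the authors' deposited table for WT22M, 2 are marked higher and 1 lower (background 1.19% and 2.43%). Hist1h4i is marked in all 3 of the authors' deposited tables, with log2 fold changes of 2.83, 2.72 and 2.43. Hist1h2bc is marked higher in the authors' deposited table for KO26F alone, with 1.29, on 225 counts against 91. The 3 tables share WT25F and are not independent of each other.

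Several of the other marks rest on few reads. In the authors' deposited table for KO23M, Hist4h4 and Hist1h2al are marked on 11 counts each against 0, and Hist1h3e on 16 against 4. In the authors' deposited table for KO26F, Hist1h4c is marked on 9 counts against 1, and in that for WT22M, Hist4h4 on 7 against 0. None of these 4 genes passed the filter on low counts. Hist1h3h, an H3 gene, is marked lower in the authors' deposited tables for KO26F and WT22M, with log2 fold changes of -1.60 and -2.03. It had 11, 27, 33 and 8 counts, and 93.9% of its 50-base windows also occur in transcripts of other genes, so its reads could have been split or dropped. Its log2 fold change was -0.14 (SE 0.62) in KO against carriers.

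The genes that serve histone supply were described as lists, none of which had a member called in KO against carriers. Of the 12 replacement histones 8 were higher in the KO-labelled libraries, with a median log2 fold change of 0.04 against 0.00 over all genes. The 3 with the smallest unadjusted p were H1fx (0.18, SE 0.11), a linker histone, H2afx (0.18, SE 0.12), the variant phosphorylated at DNA breaks, and H2afy (0.10, SE 0.10), a macroH2A. H2afx stood at 188, 215, 161 and 196 CPM in KO26F, KO23M, WT25F and WT22M, lowest in WT25F.

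Of 14 genes for histone gene transcription and 3′ end processing that were found among 16 symbols, 10 were higher, with a median of 0.06. Slbp, the stem-loop binding protein, stood at 41.9, 43.3, 39.1 and 41.1 CPM in the same order, a log2 fold change of 0.08 (SE 0.11). Npat, the coactivator of histone gene transcription, stood at 16.5, 11.5, 15.0 and 12.2 CPM, a log2 fold change of 0.04 (SE 0.18). In both genes the difference between groups was smaller than its standard error. Lsm10 and Lsm11, proteins of the U7 particle, had log2 fold changes of -0.09 (SE 0.15) and -0.02 (SE 0.12). Of the 8 genes of histone mRNA decay 6 were higher (median 0.04), and of 21 histone chaperones 15 were higher (median 0.05). Eri1, the exonuclease that trims the stem-loop end, was at 0.03 (SE 0.12), and Hjurp, the chaperone of Cenpa, at -0.27 (SE 0.17).

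Genes of the dividing cells in which these histones are made mostly had higher fitted levels in the KO-labelled libraries, and none was called. Of 25 S phase genes 23 were higher, with a median log2 fold change of 0.11, and of 20 genes of G2 and M phase all 20, with a median of 0.15, against 0.00 over all genes. Rrm2, a subunit of ribonucleotide reductase, stood at 137, 127, 106 and 95.2 CPM in KO26F, KO23M, WT25F and WT22M, a log2 fold change of 0.39 (SE 0.10, adjusted p = 0.633, edgeR's quasi-likelihood test). The S phase genes summed to 1771 and 1787 CPM in the KO-labelled libraries, and to 1550 in WT25F and 1690 in WT22M. In WT22M against WT25F, where 0 of either list were called too, 20 of the 25 S phase genes were higher, with a median of 0.18, and 9 of the 20 genes of G2 and M phase, with a median of -0.03. These carrier values stand beside the 0.11 and 0.15 given above, and the difference was not tested. The Hist1 sums given above had their lowest value in the same library as the S phase genes, WT25F, and the part of the S phase genes in it was not tested. Of the cell type markers, 5 of 8 for radial glia, the dividing progenitors, were higher (median 0.05), and 2 of 8 for neurons (median -0.04). Higher too were 0 of 7 for mesenchyme (median -0.22) and 4 of 7 for erythroid cells (median 0.31, with the highest sum in WT25F). For choroid plexus 7 of 7 were higher (median 0.53, with the lowest sum in WT22M). In KO against WT25F 1 of these 7 was higher, with a median of -0.17. The part of the cell type markers in the values of the cell cycle genes was not tested.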

How the data were processed

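The 3 deposited tables set KO26F, KO23M and WT22M each beside WT25F. Per the file headers they hold raw read counts per gene, with CPM values by the authors. The authors also deposited a log2 fold change, its p-value and the adjusted value; no source used here names the test. Bowtie2 2.2.3, TopHat2 2.0.12, HTSeq 0.6.0 and the build mm9 are named in the submitters' processing notes. The positions of all 47 genes equal those of GENCODE vM21 on GRCm38, so that build is given here. No source used here states the strand or multi-mapping settings.

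The counts were joined by gene identifier. CPM is the count per 1000000 of the joined total, and levels between genes are per kilobase of the union of annotated exons. Counts were tested over the whole table with edgeR 4.0.16 (TMM, filterByExpr, robust quasi-likelihood, Benjamini-Hochberg threshold 0.05) in R 4.3.3, in 2 arms (KO against carriers) and in 3 groups (KO, WT25F, WT22M). The alternatives comprised DESeq2 1.42.0, voom in limma 3.58.1, RLE size factors, other filters, the title letter as a block, genes listed in all 3 tables, the spread of the 2-arm fit and each library left out. The bias-adjusted form of the quasi-likelihood fit was added after seeing the data. The genes and lists were chosen with earlier results of these data known. The sums without named genes were also set after seeing values.

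Genes were named if called in any comparison, if among the 3 highest per length in a class, if among the 5 highest or lowest fold changes of KO against carriers (3 for WT22M against WT25F) with a mean of at least 20 counts, or from a short fixed list; of other lists, up to 3 genes with the smallest unadjusted p were taken. Hist2h3c2, Hist2h4, Hist1h3e, Hist1h4c, Hist1h4j, the neighbours of Hist1h4i, H3f3b, H1f0, H2afz, H2afj, H3f3c, Slbp, Npat, Lsm10, Lsm11 and Eri1 were named outside this rule. The script was tested on simulated data, with 200 genes changed.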

Additional observations from a re-analysis of the deposited data

Results flagged for a closer look

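Hist1h3h moved in opposite directions in the 2 pairs of libraries that share a title letter. KO26F was below WT25F, with a log2 ratio of -1.60 and a counting interval from -2.73 to -0.58, and KO23M was above WT22M, with 1.70 and an interval from 0.52 to 3.05. The difference of the 2 log2 ratios was -3.30, and it was not tested. The counts were 11 and 33 in the F pair and 27 and 8 in the M pair, and 93.9% of its 50-base windows also occur in transcripts of 13 other genes.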

How the results depend on the processing

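In KO against carriers, 0 Hist genes were called under every alternative except with 1 library left out, where the count ran from 0 to 2: 1 without KO23M (Hist1h4i, log2 fold change 1.12, adjusted p = 0.0239, edgeR) and 2 without WT22M (Hist1h4i and Hist1h2bc, 2.78 and 1.10). Without KO23M the bias-adjusted fit called none of them, Hist1h4i having an adjusted p of 0.9989; over 13 alternatives the adjusted p of Hist1h4i ran from 2.84e-11 to 1. All genes called numbered 10, against 6 with limma voom, 42 to 110 with 1 library left out and 63 with the bias-adjusted fit without KO23M. With the title letter as a replicate block 123 genes and 0 Hist genes were called; the labels do not say that the letter marks a pair, and across 16252 genes the F minus M differences of the 2 groups correlated at 0.22. With 2 pairs this does not settle whether the letters pair the libraries. Under the block the adjusted p of Hist1h2bc was 0.0740.

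The Hist genes called against WT25F fell from 2 (KO) and 1 (WT22M) to 1 and 0 with DESeq2, to 0 and 0 with no filter, and to 0 and 0 when the 2-arm fit supplied the spread. Over all genes the calls fell from 56 and 116 to 23 and 33, to 0 and 0, and to 6 and 0 in the same settings. The last setting takes WT25F and WT22M as replicates, so their difference is part of the spread used. For Hist1h4i and Hist1h2bc, both lowest in WT25F, this widens the spread in both comparisons. The missing calls there decide nothing. The median of the 13 genes, -0.02, took either sign. It was 0.02 with limma voom, 0.04 with no filter (47 genes) and 0.12 with a minimum of 1 CPM in 2 libraries (11 genes). With 1 library left out it ran from -0.14 to 0.16. Small fold changes of KO against carriers changed sign with 1 library left out: Hist1h1c from -0.11 to 0.51, Hist1h2be from -1.07 to 0.23, Hist1h3c from -0.20 to 0.80, Hist1h3h from -0.93 to 1.17 (0.023 with limma voom), Hist1h3i from -0.46 to 0.40, Hist3h2a from -0.18 to 0.16, Hist3h2ba from -0.26 to 0.15 and Hist3h2bb-ps from -0.39 to 0.52 (-0.39 also in the bias-adjusted fit without KO23M). A sum over genes whose protein no other gene of the set encodes was not run, as no protein table was used here. The causes were not tested.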
